A study of Mus musculus with 4 samples.

Results

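The 10 genes described here encode Wnt ligands or secreted proteins that modulate Wnt signalling, and were examined in single cells of the mouse sciatic nerve. They were the ligands Wnt5a and Wnt9a, the antagonists Wif1, Sfrp1, Sfrp2, Sfrp4, Sfrp5, Dkk3 and Sostdc1, and the R-spondin Rspo3. The genes were taken by name, but with earlier results of these data known. They made up 10 of the 22716 genes listed over 4 count matrices, in each of which all 10 were listed. Wnt proteins are secreted, lipid-modified ligands that bind Frizzled receptors together with co-receptors, either stabilising β-catenin through Lrp5 and Lrp6 or acting through Ror and Ryk receptors without β-catenin. Secreted Frizzled-related proteins (Sfrp) and Wif1 bind the ligands themselves, Sostdc1 and members of the Dkk family act at the Lrp co-receptors, and R-spondins raise the sensitivity of a cell to Wnt by keeping its receptors at the surface. In peripheral nerve, Wnt signalling is known for its part in Schwann cell development and myelination.

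The study asked which cell types of the nerve express secreted ligands after injury, in the intact nerve and during development, using Drop-seq, a droplet method that counts the transcripts of each cell by unique molecular identifiers (UMIs). All mice were wild-type CD1. The 3 days post-injury (DPI) library was made from the distal segment of adult nerves 3 days after a piece of the nerve had been removed, and the uninjured library from intact adult nerves, both after myelin removal beads. Neonatal replicate 1 was sorted by flow cytometry from pups aged postnatal day 3 to 4, and neonatal replicate 2 was cleared with myelin removal beads from pups aged postnatal day 2 to 3. The matrices held 2500 barcodes for 3 DPI, 2000 for uninjured, 2500 for neonatal replicate 1 and 6200 for neonatal replicate 2, with 4513814 to 8123103 UMIs each. After filtering, 2162, 1837, 2191 and 5420 cells remained, at a median of 1806, 1635, 1568 and 997 UMIs, and no pair of libraries shared more than 3 barcodes. How many animals were pooled in a library was not given in the sources used here.

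Each adult condition was 1 library, and the 2 neonatal libraries differed in isolation and in age. No value below therefore carries a p-value. Levels are given as the share of the cells of a class with at least 1 UMI of a gene, and as CPM, the UMIs of the gene per 1000000 UMIs of all genes summed over the class. The ranges given after values and ratios are 95% intervals that cover counting error only, not the spread between animals. Because a cell with more UMIs shows more genes, shares were also taken after every cell of at least 500 UMIs had been reduced to 500 at random. Free RNA in droplets puts UMIs into cells that do not express a gene, so shares are read beside those of a class in which the gene was low in the same library, mostly endothelial-like cells.

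Cells were clustered without the 10 genes or any other gene of the Wnt pathway, and the clusters were named from markers that also excluded them. The endoneurial-like class, mesenchymal cells that lie among the axons, numbered 273 cells at 3 DPI, 417 in uninjured and 368 in neonatal nerve. Sox9 was found in 58.2% of these cells at 3 DPI and 49.6% in uninjured nerve, and Osr2 in 45.1% and 55.6%. The epineurial-like class of the outer sheath numbered 428, 376 and 703 cells, of which Dpt marked 82.5% at 3 DPI and 81.4% in uninjured nerve. In each adult library it split into a cluster named from its levels of Pi16 and Dpp4 and a cluster with Comp and Gdf10 among its leading genes. The Schwann-like class numbered 139, 366 and 4890 cells, with Sox10 in 37.4% of its cells at 3 DPI and in uninjured nerve. A perineurial-like cluster, the cells that wrap each nerve fascicle, was found in uninjured (67 cells) and neonatal nerve (407 cells) but not at 3 DPI. The 3 DPI library held 3 classes with no counterpart in the uninjured library: 324 cells marked by the bridge genes Dlk1, Mest and Lrrc15, 145 dividing mesenchymal-like cells and 511 immune-like cells. Depth differed between classes: the median number of UMIs per cell was 4107, 2105.5, 1925 and 1981.5 for endoneurial-like, epineurial-like, Schwann-like and endothelial-like cells at 3 DPI. It was 2175, 1960.5, 983.5 and 1871 in uninjured nerve, where perineurial-like cells had 1733, and 1932, 1248, 972 and 1577.5 in neonatal nerve, where perineurial-like cells had 1598.

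Counted together, the 10 genes were found in the largest shares of cells in epineurial-like and perineurial-like classes. At least 1 UMI of any of them was found in 95.8% of Comp/Gdf10 epineurial-like cells at 3 DPI and in 92.3% in uninjured nerve, and in 98.5% of perineurial-like cells of uninjured nerve. In endoneurial-like cells this share was 80.2% at 3 DPI and 43.4% in uninjured nerve, and in Schwann-like cells 52.5% and 71%. It was 30.9% and 27% in endothelial-like and 42.9% and 11.5% in VSM/pericyte-like cells, and 18.6% in immune-like cells at 3 DPI, at a median of 894 UMIs. The number of the 10 genes found in at least 2% of cells at 3 DPI was 7 for endoneurial-like, 9 for epineurial-like, 6 for Schwann-like, 7 each for endothelial-like and VSM/pericyte-like and 2 for immune-like cells. The same limit was passed by 53.1%, 46%, 49.1%, 53.6%, 46.9% and 33.5% of all genes listed. In uninjured nerve the number was 6 in endoneurial-like, 7 in epineurial-like and 5 in Schwann-like cells, beside 48.8%, 48.3% and 39.2% of all genes. In neonatal nerve it was 5, 8 and 3, beside 43.6%, 38% and 36.6%.

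**Figure D1:**
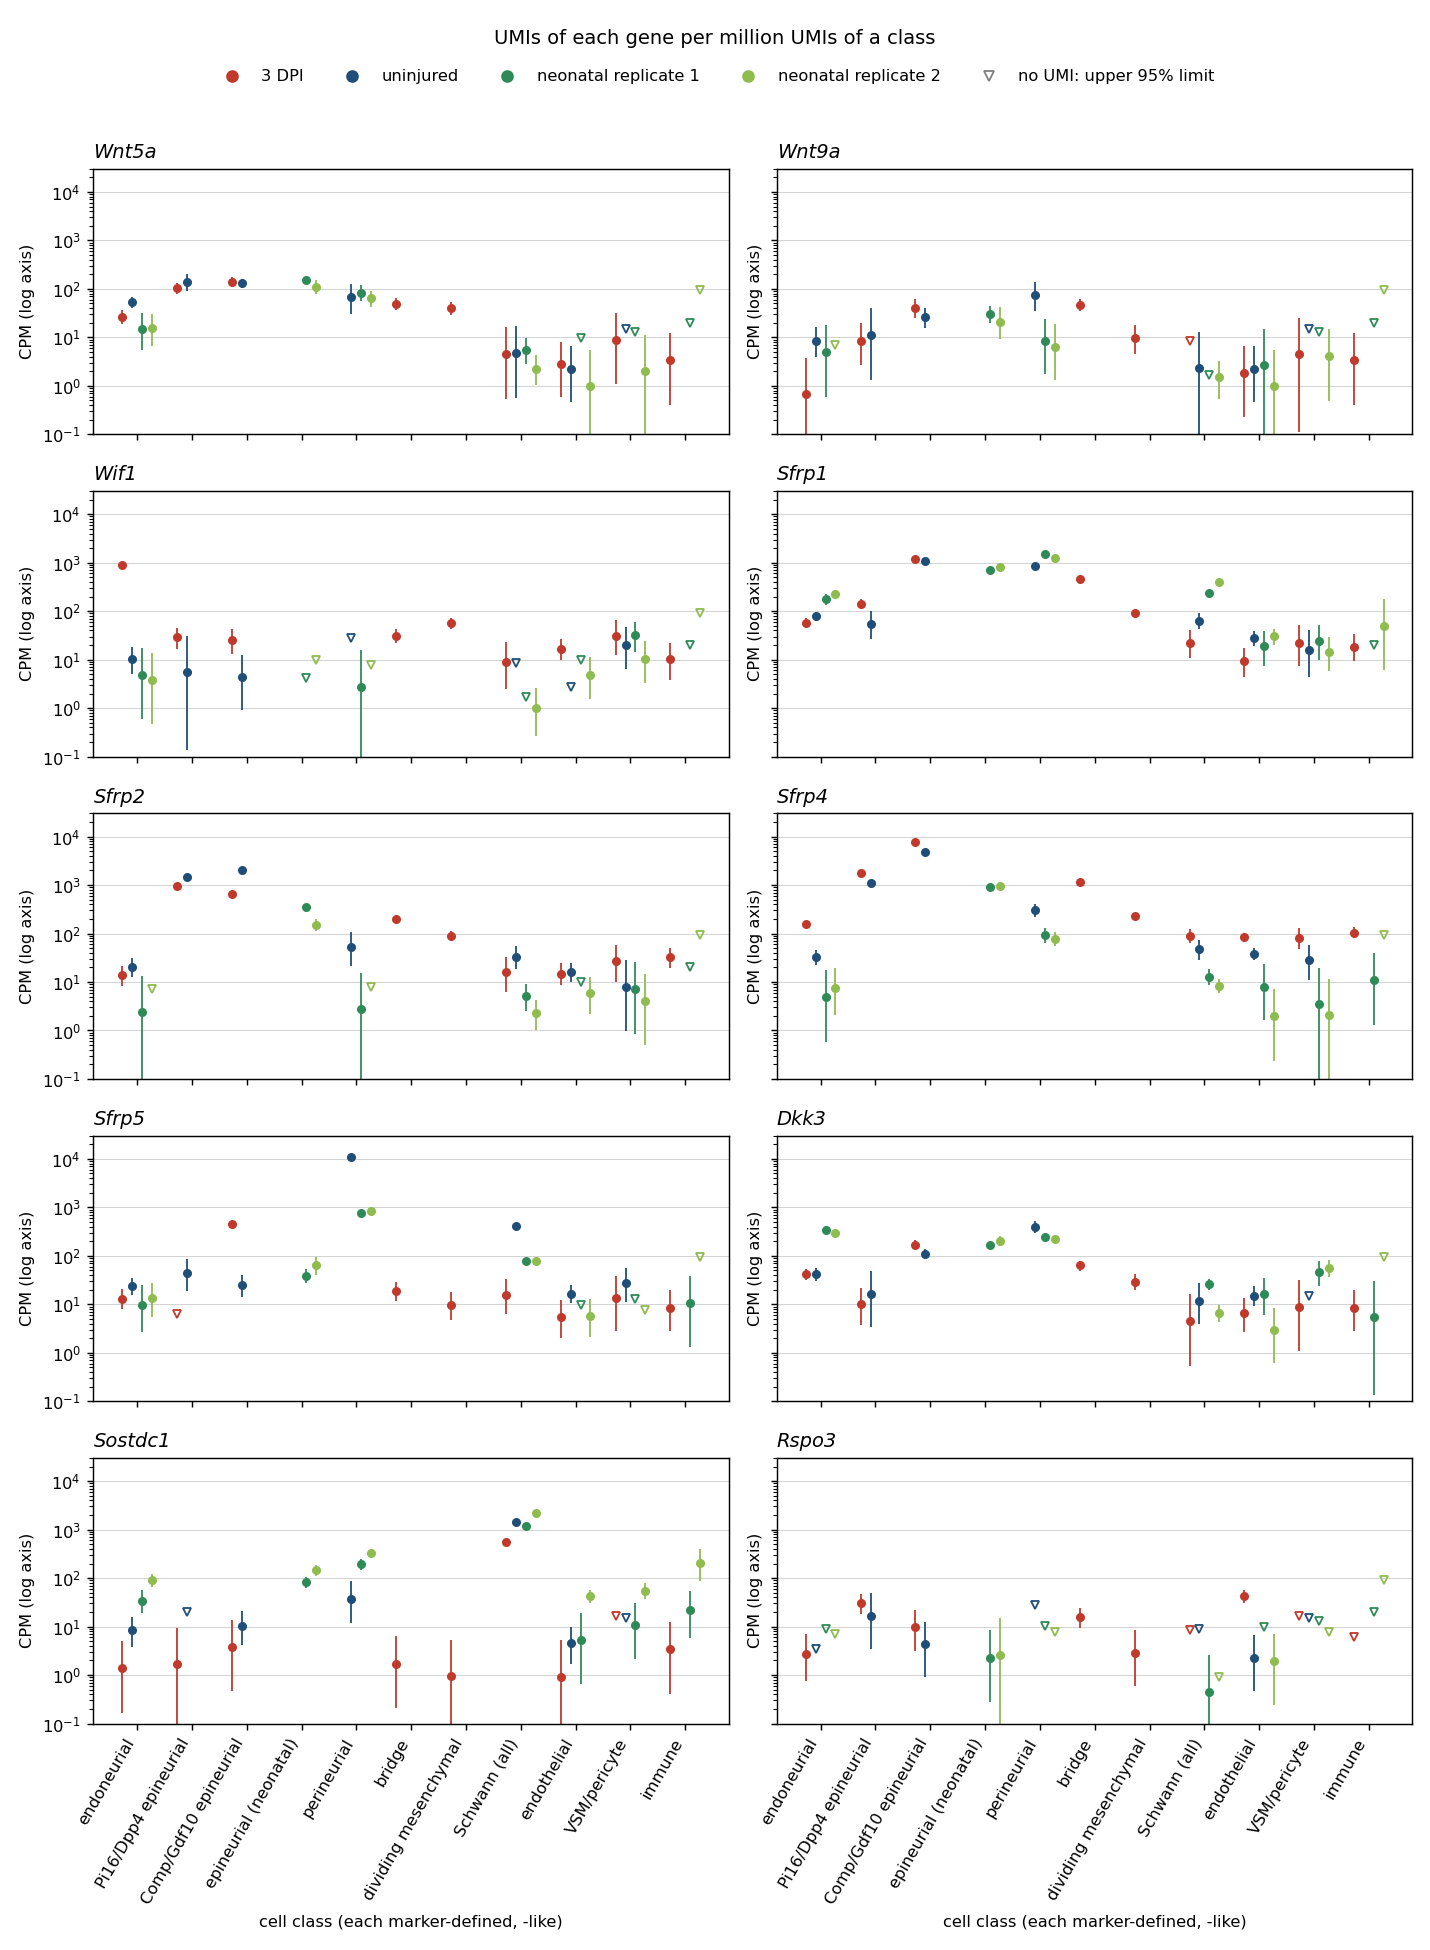
Level of each of the 10 genes by cell class, as CPM on a log axis with 95% counting intervals, coloured by library (3 DPI, uninjured, neonatal replicate 1 and neonatal replicate 2). Open triangles mark classes with no UMI, at the upper 95% limit. Wif1 stands out in endoneurial-like cells of the 3 DPI library alone (879 CPM), Sfrp5 in perineurial-like cells of uninjured nerve (10972 CPM) and Sostdc1 in Schwann-like cells of all 4 libraries.

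Wnt5a, a ligand that mostly acts through Ror2 without β-catenin, was highest in epineurial-like cells and lower in other mesenchymal classes. In epineurial-like cells the Wnt5a level was 121 CPM at 3 DPI (found in 20.1% of cells), 133 CPM in uninjured nerve (17.8%), 149.8 CPM in neonatal replicate 1 and 111 CPM in neonatal replicate 2. The 4 libraries were thus close to each other, and the ratio of 3 DPI to uninjured nerve was 0.911 (0.706 to 1.18). The Pi16/Dpp4 and Comp/Gdf10 clusters were alike, at 105 and 140.4 CPM at 3 DPI and 138 and 132 CPM in uninjured nerve. Perineurial-like cells held 67 CPM in uninjured nerve, inside the endoneurial-like interval below, and 83.6 and 63.8 CPM in the neonatal libraries. At 3 DPI, bridge-like cells held 57 UMIs in 39 of 324 cells and dividing mesenchymal-like cells 41 UMIs in 25 of 145 cells. Endoneurial-like cells held less Wnt5a than epineurial-like cells in every library: 26.7 CPM (19 to 36.5) at 3 DPI, 53.5 CPM (40.5 to 69.3) in uninjured nerve, and 14.6 and 15.4 CPM in the neonatal libraries. The 3 DPI level in endoneurial-like cells was 0.499 times the uninjured level (0.323 to 0.763), a value at the edge of 2-fold. Endothelial-like cells gave the background for Wnt5a, with 3 UMIs in each adult library (2.79 and 2.26 CPM), in 1.22% of cells at 3 DPI and 0.716% in uninjured nerve.

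Wnt9a, a ligand of the β-catenin branch, was found at low levels and mostly in bridge-like and Comp/Gdf10 epineurial-like cells. At 3 DPI, bridge-like cells held 54 UMIs in 38 of 324 cells, a share of 11.7% (8.43% to 15.7%), against 0.407% of endothelial-like cells, and a level of 46.8 CPM. These were 55.1% of all Wnt9a UMIs of the library. Comp/Gdf10 cells of the same library held 40.4 CPM (25 to 61.7), Pi16/Dpp4 cells 8.44 CPM, and endoneurial-like cells a single UMI. In uninjured nerve, Comp/Gdf10 cells held 26.1 CPM (15.5 to 41.3) and perineurial-like cells 74.5 CPM (35.7 to 137), the latter from 10 UMIs in 6 of 67 cells. Neonatal perineurial-like cells held 6 UMIs (7.24 CPM), a ratio to uninjured nerve of 0.0971 (0.029 to 0.295). With this few UMIs the order of bridge-like, Comp/Gdf10 and perineurial-like cells could not be told, since their intervals overlapped.

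Wif1, which binds Wnt ligands in the extracellular space, showed the largest ratio between the adult libraries of the genes and classes compared. In endoneurial-like cells of the 3 DPI nerve 1283 Wif1 UMIs were counted in 191 of 273 cells, a share of 70% (64.1% to 75.3%) and a level of 879 CPM (831 to 928). In uninjured endoneurial-like cells 11 UMIs were counted in 5 of 417 cells, a share of 1.2% (0.39% to 2.78%) and a level of 10.3 CPM (5.15 to 18.5). The neonatal endoneurial-like cells held 4 UMIs in 4 of 368 cells (4.3 CPM). The ratio of 3 DPI to uninjured nerve was 85.1 (47.4 to 171), and it was 132 when the cell with the most Wif1 UMIs was left out of each library. Neonatal nerve as a whole held 28 Wif1 UMIs in 21 of 7611 cells, of which 14 were in VSM/pericyte-like cells, the smooth muscle and pericytes of the vessels.

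Within the 3 DPI library, endoneurial-like cells were 12.6% of cells and held 84.8% of the Wif1 UMIs. The transcript was spread over many cells rather than held by a few: 82 cells had no UMI, 37 had 1 and 20 had 2, while 45 cells had 10 or more and none had more than 30. Dividing mesenchymal-like cells followed at 57 CPM (15.2% of cells), and all other classes lay between 9.02 and 31.2 CPM. Endothelial-like cells, which served as background, had a Wif1 UMI in 6.1% of cells at a median of 1981.5 UMIs, and immune-like cells in 1.17% at a median of 894, against 70% at a median of 4107 in endoneurial-like cells. At 500 UMIs per cell the share was 28.6% in 252 endoneurial-like cells, 0% in 210 endothelial-like cells (upper limit 1.74%) and 0.242% in 414 immune-like cells. The ratios above 2-fold for Wif1 in epineurial-like cells (5.87, 2.07 to 22.9) and endothelial-like cells (7.41) were made at levels near this background. The latter ratio was taken against no UMI in 419 uninjured cells, set to a floor of 3 UMIs, or 0.716% of cells.

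**Figure D2:**
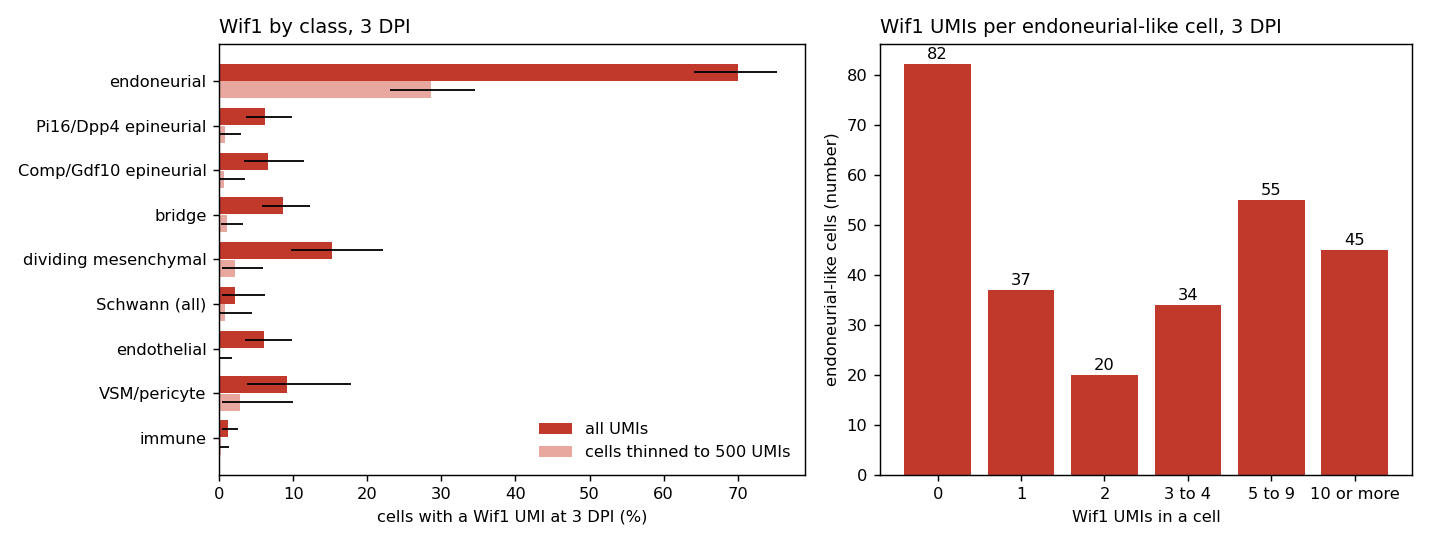
Left, share of cells with a Wif1 UMI by class in the 3 DPI library with 95% intervals, from all UMIs and at 500 UMIs per cell, with endoneurial-like cells at 70% and 28.6%. Right, number of 3 DPI endoneurial-like cells by the number of Wif1 UMIs they held, from 82 cells with none to 45 cells with 10 or more.

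Some markers of other cell types moved with the endoneurial-like class between the libraries. Pi16, an epineurial marker, was found in 40.3% of endoneurial-like cells at 3 DPI and 8.39% in uninjured nerve. Of the 7 epineurial markers, Clec3b (12.5% and 29.7%), Dpp4 (9.16% and 18.7%) and Pcolce2 (1.83% and 2.16%) were less often found at 3 DPI, whereas Pi16, Dpt (19% and 14.4%), Ly6c1 (30.4% and 20.4%) and Comp (2.93% and 2.4%) were more often found. The 5 perineurial markers were all more often found at 3 DPI: Cldn1 in 17.9% and 1.2%, Slc2a1 in 12.8% and 5.28%, Itgb4 in 5.13% and 2.4%, Casq2 in 3.66% and 2.88% and Msln in 1.1% and 0.719%. Of the 6 immune markers, Lyz2 was found in 44.3% and 0.719% of endoneurial-like cells, Cd52 in 3.66% and 0.24%, Laptm5 in 3.3% and 0%, Aif1 in 2.56% and 0.719%, the defining marker Ptprc in 1.83% and 0.959%, and Ptprcap in none. The part of these markers in the values of the 10 genes was not tested.

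Sfrp1, which binds Wnt ligands and Frizzled receptors, was found in sheath cells, in bridge-like cells and in Schwann-like cells. In Comp/Gdf10 epineurial-like cells its level was 1218 CPM (1125 to 1316) at 3 DPI and 1072 CPM (996 to 1152) in uninjured nerve, while Pi16/Dpp4 cells held 144 and 55.2 CPM. Perineurial-like cells held 864 CPM (714 to 1036) in uninjured nerve, 1479.9 CPM in neonatal replicate 1 and 1233 CPM in neonatal replicate 2. Sfrp1 was thus counted in both sheath layers, and within the adult epineurium mostly in the Comp/Gdf10 cluster. Without the top cell, neonatal epineurial-like cells held 675 CPM in replicate 1 and 781 CPM in replicate 2. Bridge-like cells at 3 DPI held 535 UMIs in 113 of 324 cells, or 443 CPM without the top cell. In Schwann-like cells Sfrp1 was found at 22.5 CPM at 3 DPI, 63.8 CPM in uninjured nerve, and 235 and 394 CPM in the neonatal libraries. Without the top cell, the 3 DPI value was 18.4 CPM, beside 15.2 CPM in immune-like and 8.57 CPM in endothelial-like cells. The neonatal Schwann-like level was 5.3 times the uninjured level (3.63 to 8.06), 3.68 times in replicate 1 and 6.18 times in replicate 2. The 3 DPI level was 0.353 times the uninjured level (0.153 to 0.753) but 1.01 times when each cell was classed from its own markers. Neonatal myelinating Schwann-like cells held 28.4 CPM and dividing ones 328 CPM. The Schwann-like clusters named neither myelinating nor dividing together held 404 CPM. In the uninjured nerve, all 27 Schwann-like Sfrp1 UMIs were outside the myelinating cluster, which held none in 80 cells. Neonatal endothelial-like cells, the background, had an Sfrp1 UMI in 3.85% of cells (27.2 CPM) against 25.4% of Schwann-like cells, and the latter share was 15.1% at 500 UMIs per cell.

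Sfrp2, an antagonist related to Sfrp1 and also known for acting on collagen processing, was counted mostly in epineurial-like cells. These cells held 96.1% of the Sfrp2 UMIs of the uninjured library and 91.9% of those of the neonatal libraries. The level was 814 CPM (762 to 869) at 3 DPI, 1886 CPM (1796 to 1979.7) in uninjured nerve, 353 CPM in neonatal replicate 1 and 151 CPM in neonatal replicate 2. Uninjured nerve was thus highest, with intervals that did not overlap those of the other libraries. The 3 DPI level was 0.431 times the uninjured level (0.397 to 0.468), and the neonatal level 0.155 times (0.138 to 0.173). The lower level at 3 DPI was found in both adult clusters, at 0.327 times (0.29 to 0.368) in Comp/Gdf10 cells and 0.657 times (0.566 to 0.763) in Pi16/Dpp4 cells. At a finer clustering, which moved the border of the class, the ratio over epineurial-like cells was 0.736. Bridge-like cells of the 3 DPI library held 200 CPM in 25.9% of cells, against 4.88% of endothelial-like cells. Sfrp2 overlaps the gene Gm26771, which lies on the opposite strand and was counted as a gene of its own. Whether UMIs of the 2 genes were mixed was not tested.

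Sfrp4, another Sfrp antagonist, was a gene of epineurial-like cells in every library. Comp/Gdf10 cells held 7534 CPM (7300.3 to 7774) at 3 DPI, in 85.1% of cells, and 4883 CPM (4719.7 to 5051) in uninjured nerve, in 73.6% of cells. Pi16/Dpp4 cells held 1758 and 1116 CPM. Within each cluster the 3 DPI level was higher, 1.54-fold (1.47 to 1.62) in Comp/Gdf10 cells and 1.58-fold in Pi16/Dpp4 cells, whereas over all epineurial-like cells the ratio was 1.09 (1.04 to 1.14), the share of Comp/Gdf10 cells being 168 of 428 at 3 DPI and 284 of 376 in uninjured nerve. Neonatal epineurial-like cells held 917 CPM in replicate 1 and 936 CPM in replicate 2, together 0.225 times the uninjured level (0.21 to 0.241). Bridge-like cells of the 3 DPI library held 1158 CPM in 54.6% of cells, close to the Pi16/Dpp4 level.

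Sfrp4 was also counted in endoneurial-like cells, at 154 CPM (135 to 176) in 111 of 273 cells at 3 DPI, 32.9 CPM (22.9 to 45.7) in 33 of 417 cells in uninjured nerve and 6.45 CPM in neonatal nerve. The ratio of 3 DPI to uninjured nerve was 4.69 (3.27 to 6.9). The background differed between these libraries as well: 3 DPI immune-like cells held 103 CPM (79 to 133), 3 DPI Schwann-like cells 90.2 CPM and endothelial-like cells 84.7 CPM in the 3 DPI and 38.4 CPM in the uninjured library. At 500 UMIs per cell, 7.54% of 3 DPI endoneurial-like and 5.8% of immune-like cells had an Sfrp4 UMI, against 40.7% and 11.5% without thinning, at median depths of 4107 and 894 UMIs. In uninjured nerve the endoneurial-like level was not above that of endothelial-like cells.

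Sfrp5, an Sfrp antagonist, was a gene of perineurial-like and Schwann-like cells. In uninjured nerve 65 of 67 perineurial-like cells had an Sfrp5 UMI, a share of 97% (89.6% to 99.6%) at 10972 CPM (10419 to 11547), and these cells held 85.4% of the Sfrp5 UMIs of the library. The neonatal perineurial-like cells held 755 CPM in replicate 1 (70% of cells) and 846 CPM in replicate 2 (50.8% of cells). Both neonatal levels were far below the uninjured level, with a ratio of 0.0735 (0.067 to 0.0806). Cells from 3 DPI nerve could not enter this comparison as a cluster. By a rule set after the clusters were seen, mesenchymal-like cells with UMIs of at least 3 of the 5 perineurial markers Slc2a1, Casq2, Msln, Cldn1 and Itgb4 were counted in every library. There were 8 of 1170 at 3 DPI, 49 of 860 in uninjured nerve and 48 of 1478 in neonatal nerve. Of these, 6, 49 and 41 cells had an Sfrp5 UMI, at 3566, 11369 and 1405 CPM. With at least 2 markers there were 45, 62 and 131 cells, at 579, 10531 and 949 CPM, so that uninjured nerve was highest under either rule while the order of 3 DPI and neonatal nerve turned.

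Schwann-like cells were the other source of Sfrp5 in the uninjured nerve. They held 404 CPM (346 to 469.5) in 94 of 366 cells, a share of 25.7% (21.3% to 30.5%), against 5.01% (16.6 CPM) in endothelial-like cells, the background also for the perineurial-like share. The non-myelinating cluster held 442 CPM and the myelinating cluster 285 CPM. At 3 DPI, 7 UMIs were counted in 6 of 139 Schwann-like cells, a level of 15.8 CPM (6.34 to 32.5), so that the 3 DPI level was 0.039 times the uninjured level (0.0155 to 0.0822), or 25.6-fold lower. The neonatal Schwann-like levels were 77.9 CPM in replicate 1 and 79.2 CPM in replicate 2, together 0.195 times the uninjured level (0.163 to 0.233). The order of the 3 conditions in Schwann-like cells was thus uninjured, neonatal, then 3 DPI, and no interval overlapped its neighbour. In 3 DPI Comp/Gdf10 cells, Sfrp5 reached 462 CPM through few cells: 229 of 240 UMIs were in 7 cells, and 198 were in cells with at least 2 perineurial markers. The remaining 160 Comp/Gdf10 cells held 84.6 CPM, against 24.7 CPM in uninjured Comp/Gdf10 cells. The ratio over all epineurial-like cells was 7.51 (4.97 to 11.8), and 0.164 when each cell was classed from its own markers.

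Dkk3, the divergent member of the Dickkopf family of secreted antagonists, was highest in neonatal endoneurial-like and in perineurial-like cells. Neonatal epineurial-like cells held 219 UMIs in 150 of 703 cells, and neonatal Schwann-like cells 82 UMIs in 62 of 4890 cells. In endoneurial-like cells the Dkk3 level was 41.8 CPM at 3 DPI, 42.2 CPM in uninjured nerve, 341 CPM in neonatal replicate 1 and 290.0 CPM in neonatal replicate 2. The adult libraries did not differ beyond counting error, with a ratio of 0.989 (0.662 to 1.49), and both neonatal libraries were higher, together 7.4-fold (5.39 to 10.4). The share of neonatal endoneurial-like cells with a Dkk3 UMI was 39.9% (34.9% to 45.2%), against 1.28% of endothelial-like cells, and 15.7% at 500 UMIs per cell. Perineurial-like cells held 395 CPM (296 to 516) in uninjured nerve, 239.7 CPM in neonatal replicate 1 and 219 CPM in neonatal replicate 2. Comp/Gdf10 epineurial-like cells held 171 CPM (137 to 211) at 3 DPI and 107 CPM in uninjured nerve, whereas Pi16/Dpp4 cells held 10.1 and 16.6 CPM. VSM/pericyte-like cells had no Dkk3 UMI in 183 uninjured cells and 51.9 CPM in neonatal nerve. The ratio was 4.35 with the uninjured cells set to a floor of 3 UMIs.

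Sostdc1, a secreted antagonist of bone morphogenetic proteins and of Wnt signalling through the Lrp co-receptors, was a Schwann cell gene. Schwann-like cells held 95.4% of its UMIs at 3 DPI and 95.8% in uninjured nerve. The level in Schwann-like cells was 566 CPM (498 to 640.4) at 3 DPI, 1458 CPM (1346 to 1578) in uninjured nerve, 1165 CPM in neonatal replicate 1 and 2189 CPM in neonatal replicate 2. The share of Schwann-like cells with a Sostdc1 UMI was 38.1% (30% to 46.7%) at 3 DPI, 57.4% (52.1% to 62.5%) in uninjured nerve and 66.5% (65.2% to 67.8%) in neonatal nerve. Endothelial-like cells had a UMI in 0.407%, 1.43% and 5.61%. At 500 UMIs per cell the 3 shares were 17.1%, 40.3% and 52.5%, in the same order. The 3 DPI level was 0.388 times the uninjured level (0.334 to 0.45), or 2.58-fold lower, and lay below every other library. The neonatal libraries lay on both sides of the uninjured level, at 0.799 times in replicate 1 and 1.5 times in replicate 2.

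Much of the Sostdc1 in Schwann-like cells was outside the myelinating clusters. In uninjured nerve the non-myelinating cluster held 1806 CPM (1662 to 1959) and the myelinating cluster 363 CPM (256 to 500.4). In neonatal nerve the dividing cluster held 1933 CPM and the myelinating cluster 276 CPM. The Schwann-like clusters named neither dividing nor myelinating together held 2113 CPM. The myelinating cluster came to 93.4% from replicate 1. Over the clusters named neither dividing nor myelinating, the neonatal replicates stood nearer to each other, at 1709 and 2255 CPM. The make-up of these clusters differed between replicates too, the largest coming to 5.53% from replicate 1 and another to 97.1%. In neonatal mesenchymal classes Sostdc1 was counted above the adult levels, at 268 CPM in perineurial-like, 101 CPM in epineurial-like and 65.5 CPM in endoneurial-like cells. The background was high in these libraries: endothelial-like cells had a Sostdc1 UMI in 5.61% of cells (32.2 CPM), which was 0.69% in replicate 1 and 7.1% in replicate 2, and immune-like cells in 8.33% (53.4 CPM). Perineurial-like cells, at 31.9% of cells, stood above this background and endoneurial-like cells, at 13%, less so.

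Rspo3, which enhances Wnt signalling through Lgr receptors, was scarce. It was counted 93 times in 44 of 2162 cells at 3 DPI, 9 times in 8 of 1837 cells in uninjured nerve and 6 times in 5 of 7611 neonatal cells. At 3 DPI, endothelial-like cells held 45 UMIs in 10 of 246 cells, a level of 41.9 CPM (30.5 to 56), and 23 of these UMIs were in a single cell, without which the level was 22.6 CPM. Pi16/Dpp4 epineurial-like cells held 30.4 CPM (18 to 48) and bridge-like cells 15.6 CPM. The 511 immune-like cells held none. Endothelial-like cells of uninjured nerve held 3 UMIs, and the ratio of 3 DPI to uninjured nerve was 18.5 (5.95 to 93.2). It was 14.9 without the top cell of each library and 2.69 when each cell was classed from its own markers. For epineurial-like cells it was 3 (1.19 to 9.01). Rspo3 overlaps Gm20276 on the same strand, and UMIs of the 2 genes may not have been told apart.

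Differences between 3 DPI and uninjured nerve were read against all genes with at least 10 UMIs in either library. In endoneurial-like cells 7 of the 10 genes could be counted, of which Wif1 and Sfrp4 were at least 2-fold higher and Wnt5a at least 2-fold lower, while 19.8% of the 10366 genes counted were higher and 9.34% lower by the same rule. The median log2 ratio was -0.44 over the 7 genes and 0.26 over all genes. In epineurial-like cells Wif1, Sfrp5 and Rspo3 were higher and Sfrp2 lower, of 9 genes, beside 10.9% higher and 4.14% lower of all genes. In Schwann-like cells no member was higher and Sfrp1, Sfrp2, Sfrp5 and Sostdc1 were lower, of 5 genes, beside 20% higher and 16.5% lower. The Sfrp2 call rested on 14 uninjured UMIs, with no more than 1 in a cell. The median log2 ratio in Schwann-like cells was -1.37 over the 5 genes and 0.13 over all genes. In endothelial-like cells Wif1, Sfrp4 and Rspo3 were higher and Sfrp1, Sfrp5 and Dkk3 lower, of 7 genes, beside 9.46% and 7.81%. Of the 37 uninjured endothelial-like Sfrp1 UMIs 20 were in 1 cell, and the Sfrp4 ratio of 2.2 was 0.812 when doublets were kept.

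**Figure D3:**
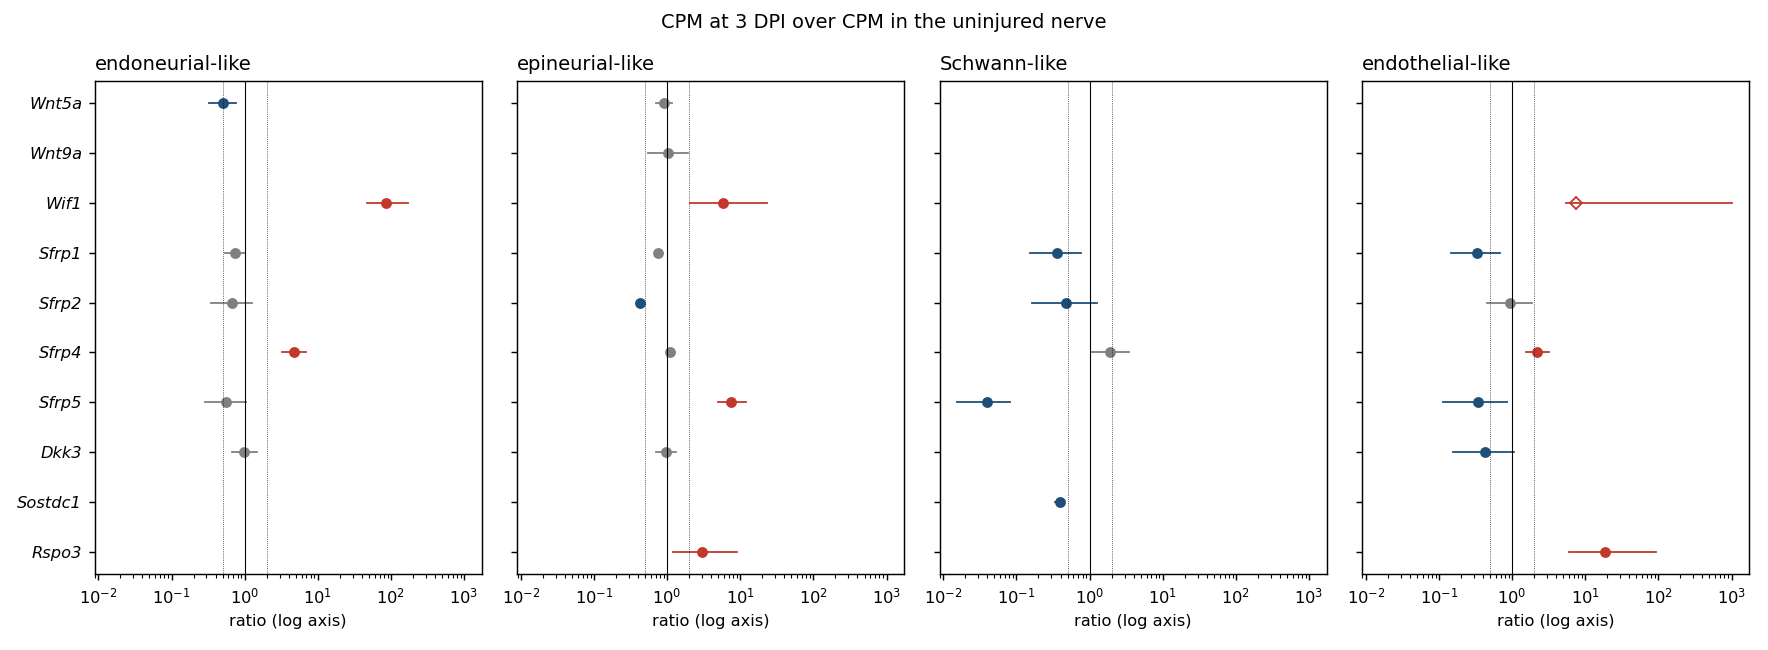
CPM ratio of 3 DPI to uninjured nerve for each gene in endoneurial-like, epineurial-like, Schwann-like and endothelial-like cells, on a log axis with 95% counting intervals. Red marks at least 2-fold higher, blue at least 2-fold lower and grey the rest. Dotted lines stand at 2-fold, and an open diamond is a ratio in which a class with no UMI was set to a floor of 3 UMIs. Wif1 in endoneurial-like cells (85.1) and Sfrp5 in Schwann-like cells (0.039) lie farthest from 1 in the 2 directions.

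The comparison of neonatal with uninjured nerve used the same uninjured library and so shares its control with the comparison above. In endoneurial-like cells Sfrp1, Dkk3 and Sostdc1 were at least 2-fold higher and Wif1, Sfrp2, Sfrp4 and Wnt5a at least 2-fold lower, of 8 genes counted, beside 16.4% higher and 12.3% lower of 9630 genes. The ratio was 2.62 (2.01 to 3.43) for Sfrp1 and 7.76 (3.83 to 17.8) for Sostdc1. In epineurial-like cells Sostdc1 was higher (12.6-fold, 5.93 to 31.9) and Sfrp2 and Sfrp4 lower, of 8 genes, beside 12.9% and 11.2%. In perineurial-like cells Sostdc1 was higher (7.19-fold, 3.03 to 22.4) and Sfrp4, Sfrp5 and Wnt9a lower, of 7 genes, beside 17.7% and 13.3%. Sostdc1 was also higher in the background classes, 7.12-fold (3.03 to 20.4) in endothelial-like cells and 3.26-fold in VSM/pericyte-like cells. The latter was taken against a floor of 3 UMIs in uninjured nerve. The Sfrp4 level of uninjured perineurial-like cells rested on 1 cell, which held 35 of 41 UMIs, and without it the ratio was 1.44 rather than 0.276. In Schwann-like cells Sfrp1 was higher and Sfrp2, Sfrp4 and Sfrp5 lower, of 7 genes, beside 15.8% and 17.7%. The uninjured Schwann-like counts were 14 UMIs for Sfrp2 and 20 for Sfrp4, with no more than 1 in a cell. Sfrp2, Sfrp4 and Sfrp5 were also at least 2-fold lower in neonatal endothelial-like cells, a background class. The values for Wif1, Sfrp2 and Sfrp4 in neonatal endoneurial-like cells came from 6 UMIs or fewer each, and the Sfrp4 ratio of 0.196 was 1.5 with at most 5% mitochondrial UMIs per cell. Under that limit the Wnt5a ratio was 0.77 rather than 0.281. The Wif1 ratio of 0.416 (0.0967 to 1.4) was 0.586 when doublets were kept and 0.85 as a mean of single-cell CPM.

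**Figure D4:**
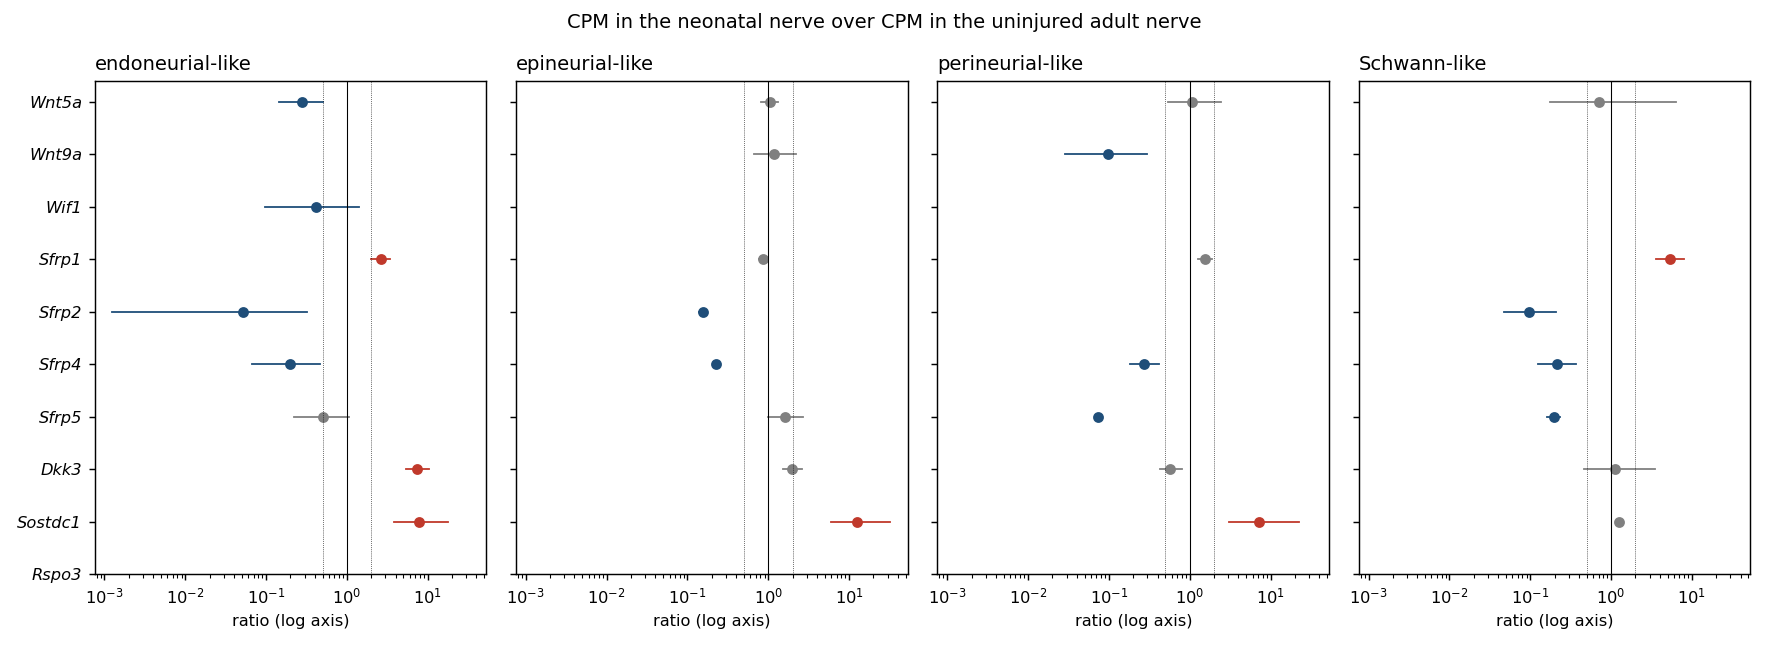
CPM ratio of neonatal nerve, both replicates summed, to uninjured nerve in endoneurial-like, epineurial-like, perineurial-like and Schwann-like cells, drawn with the same colours, intervals and 2-fold lines on a log axis. Dkk3 in endoneurial-like cells (7.4) and Sfrp1 in Schwann-like cells (5.3) lie on the higher side, and Sfrp5 in perineurial-like cells (0.0735) far on the lower side.

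Members were often found in the same cells, which was read with depth in mind, since a cell with more UMIs shows more of every gene. Of the 111 endoneurial-like cells of the 3 DPI nerve with an Sfrp4 UMI, 99 also had a Wif1 UMI (89.2%), as had 46 of the 50 cells with Sfrp1. Of all 273 of these endoneurial-like cells, 191 had a Wif1 UMI. In uninjured perineurial-like cells, all 35 cells with Sfrp1 and all 31 cells with Dkk3 also had Sfrp5. Since 65 of all 67 of these cells had Sfrp5, nearly any group of them would have done so. Across 33 points, each a class of at least 50 cells in a library, the members closest in level were Sfrp2 and Sfrp4, with a Pearson correlation of log2(CPM + 10) of 0.92, followed by Sfrp4 and Wnt5a at 0.83. The lowest correlation was -0.51, between Wif1 and Sostdc1. The points share libraries and neighbouring classes, so these values are a description.

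Among 13237 genes, the same measure named the genes most like each member. For Wif1 they were Stk32b and Fetub at 0.87 and Saa1 at 0.86, and for Sostdc1 the Schwann-like pattern was shared with Sbspon at 0.93 and with Epha5 and Zfp536 at 0.92. Sfrp5 was closest to Ntng1 at 0.89 and Cntfr at 0.83, Sfrp1 to Ephb2 at 0.91, and Dkk3 to Bace2 at 0.86. Sfrp2 was closest to the epineurial marker Dpt at 0.96, followed by Gm26771, which it overlaps, at 0.94. Sfrp4, apart from Sfrp2, was closest to Gdf10 and Cilp at 0.90, and Wnt5a to Tnxb at 0.95. Wnt9a reached 0.86 with 2810433D01Rik. Rspo3 had the weakest likeness, 0.77 with Ces2g.

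The other genes of the pathway were read from a list of 76, of which 72 were listed in the matrices. In endoneurial-like cells 11 of the 34 that could be counted were at least 2-fold higher at 3 DPI and 3 were lower, beside 19.8% and 9.34% of all genes. The median log2 ratio was 0.63 over these 34 genes and 0.26 over all genes. Of 16 receptors and co-receptors counted, 7 were higher and none lower: Fzd1, Lrp5, Lrp6, Ror2, Lgr4, Ptk7 and Vangl2. Ctnnb1, which encodes β-catenin, was at 390.3 CPM at 3 DPI and 96.7 CPM in uninjured nerve (4.04-fold), and the cell cycle gene Ccnd1 at 557 and 109.8 CPM (5.07-fold). Tcf7l1, Myc and Axin2, a feedback gene of the β-catenin branch, were lower. Cthrc1, a secreted protein known to stabilise complexes of Wnt ligands with their receptors, was at 1522 and 104 CPM, a ratio of 14.6 (12.1 to 17.8), beside 134 CPM in 3 DPI immune-like cells. Igfbp4, an extracellular protein that can inhibit Wnt signalling, was at 1812 and 373 CPM (4.86-fold) and the co-receptor Lrp6 at 325 and 124 CPM (2.62-fold). Fzd1, Lrp5, Lgr4, Ptk7, Vangl2, Ctnnb1, Ccnd1 and Cthrc1 were also at least 2-fold higher in neonatal endoneurial-like cells, whereas Igfbp4, Lrp6 and Ror2 were not. That comparison used the same uninjured library. No other Wnt ligand reached 10 UMIs in endoneurial-like cells of either adult library. The median number of UMIs per endoneurial-like cell was 4107 at 3 DPI and 2175 in uninjured nerve, and the part of depth in these values was not tested.

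In Schwann-like cells the counts were 7 higher and 5 lower of 29, beside 20% and 16.5% of all genes, shares near those of the list. The ligand Wnt6 was at 33.8 CPM at 3 DPI and 208 CPM in uninjured nerve, a ratio of 0.163 (0.0873 to 0.283). The R-spondin receptor Lgr5 was at 11.3 and 80.4 CPM (0.14) and the receptor Fzd7 at 0.114 times its uninjured level. The remaining lower genes were Vangl2 and Nkd1. The higher genes were Ndp, Cthrc1, Lgr6, Vangl1, Apc, Nkd2 and Ccnd1, so that Lgr, Vangl and Nkd genes lay on both sides. On the higher side, Nkd2, an inhibitor that acts on Dishevelled, was at 160.1 and 11.8 CPM (13.5, 5.54 to 43), and Apc, a scaffold of the complex that degrades β-catenin, was at 228 and 87.5 CPM (2.6).

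In epineurial-like cells 7 of 39 pathway genes were higher at 3 DPI and none lower, beside 10.9% and 4.14% of all genes, among them Cthrc1 at 481 and 33.3 CPM (14.4-fold). Dkk2, an antagonist at the Lrp co-receptors, was found in 48.5% of Pi16/Dpp4 cells at 3 DPI, at 762 CPM against 232 CPM in uninjured nerve. In endothelial-like cells 2 of 34 were higher and 7 lower, beside 9.46% and 7.81% of all genes. The lower 7 were Dkk2, Fzd1, Axin2, Lef1, Tcf7, Nkd1 and Apcdd1. Of these, the last 5 are feedback or target genes of the β-catenin branch or its transcription factors. The uninjured endothelial-like class joined clusters led by Slco1a4, Rbp7 and Lrg1, whereas the 3 DPI class was a cluster led by Fabp4. The part of this make-up in the endothelial-like ratios was not tested. In perineurial-like cells of uninjured nerve, where Sfrp5 was highest, Fzd2 was found in 73.1% of cells (1341 CPM), Wnt6 in 44.8% (402 CPM) and Rspo1 in 29.9% (231 CPM). All 3 were lower in neonatal perineurial-like cells, at 0.283, 0.249 and 0.439 times the uninjured level, as was Sfrp5. Over the list, neonatal nerve had 11 genes higher and 2 lower of 32 in endoneurial-like, 10 and 5 of 41 in epineurial-like, 5 and 4 of 33 in perineurial-like and 8 and 5 of 41 in Schwann-like cells. Over all genes the shares higher and lower were 16.4% and 12.3%, 12.9% and 11.2%, 17.7% and 13.3%, and 15.8% and 17.7% in these 4 classes.

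**Figure D5:**
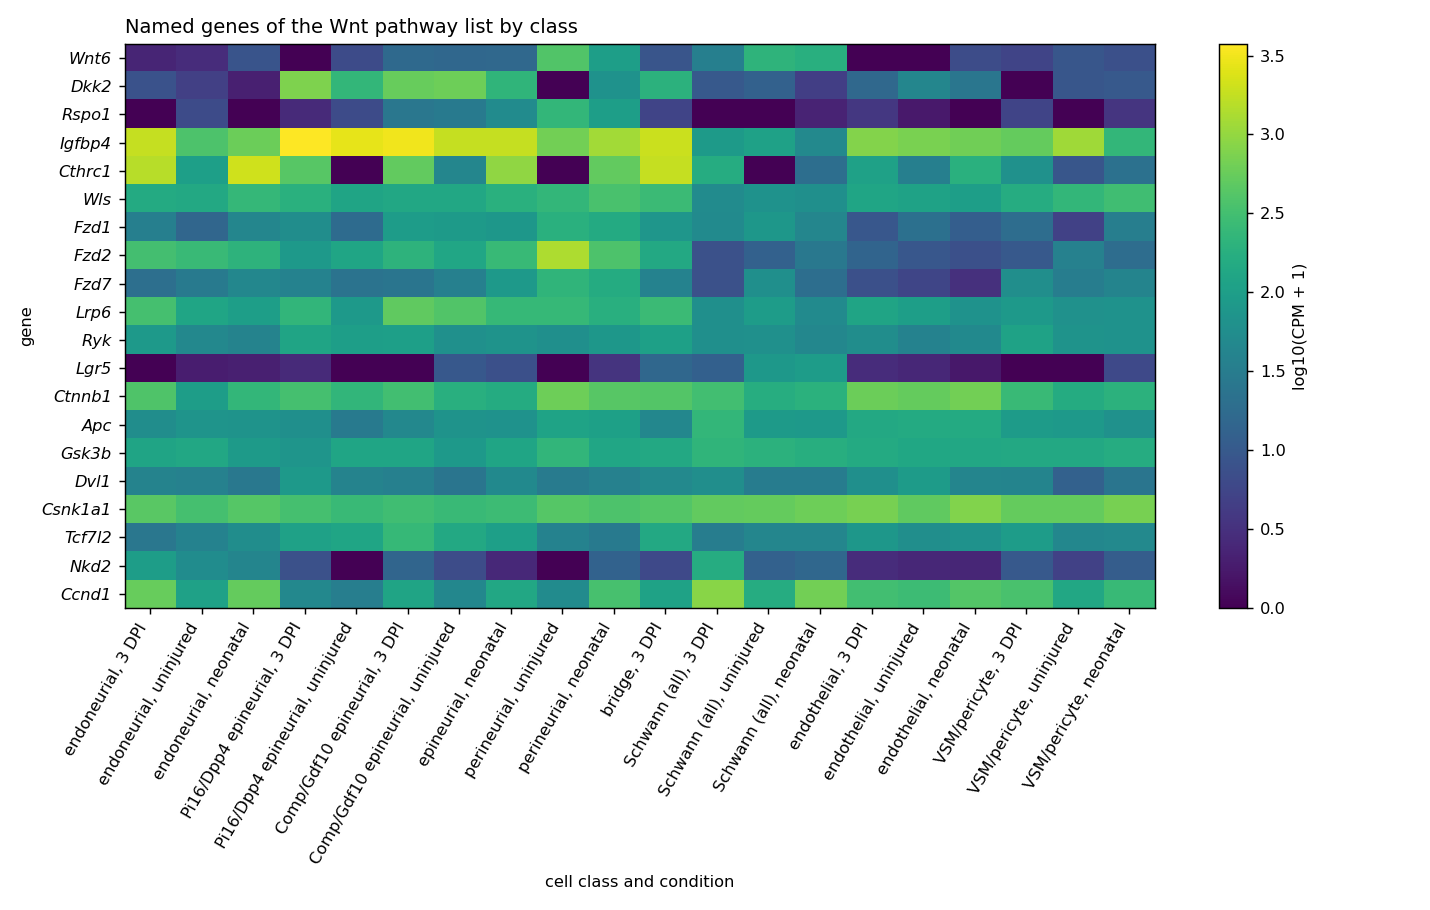
Levels of the 20 other pathway genes with the highest shares of cells, as log10(CPM + 1), by class and condition. Cthrc1 (1522 CPM) and Ccnd1 (557 CPM) were high in endoneurial-like cells at 3 DPI. Both were also high in neonatal endoneurial-like cells, at 2375 and 534 CPM in replicate 1. Wnt6 (402 CPM), Fzd2 (1341 CPM) and Rspo1 (231 CPM) stand out in perineurial-like cells of uninjured nerve.

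The positions of the 10 genes were read from the GRCm38.p6 mouse annotation, the assembly named mm10 in the files. On the plus strand lie Wif1 at chr10:121034004-121100642, Sfrp1 at chr8:23411383-23449632, Sfrp2 at chr3:83765750-83774314, Sfrp4 at chr13:19623175-19632825, Wnt5a at chr14:28504543-28527448, Wnt9a at chr11:59306849-59333552 and Sostdc1 at chr12:36314169-36318452. On the minus strand lie Sfrp5 at chr19:42197971-42202252, Dkk3 at chr7:112116019-112159482 and Rspo3 at chr10:29453106-29535867. Sfrp2, Rspo3 and Wnt5a, which overlaps Gm2670, were the members that share bases with another annotated gene.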

How the data were processed

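UMI counts per gene and cell were used as deposited by the authors. The authors mapped the Drop-seq reads to the mouse genome (build mm10 in the submitters' processing notes). Values given for neonatal nerve without a replicate number were taken over the cells of both neonatal libraries. Cells with fewer than 200 genes, more than 10% mitochondrial or more than 5% hemoglobin UMIs were left out, as were the 5% of cells with the highest scrublet doublet scores (scanpy 1.11.5). The 2 neonatal libraries were clustered together and the adult libraries apart, with scran 1.30.0 size factors, 2000 variable genes without Wnt pathway genes, 20 components and resolution 0.4 (Seurat 5.3.0, R 4.3.3). Clusters were named by marker scores. Cells of other classes with UMIs of at least 3 of 6 immune markers, 19 at 3 DPI and 9 in uninjured nerve, were set aside.

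Shares carry Clopper-Pearson, CPM Poisson and ratios conditional binomial exact 95% intervals (scipy 1.17.1). A ratio of at least 2-fold, from at least 10 UMIs in either library, was counted for all genes. For a ratio, a class with no UMI was set to a floor of 3 UMIs over the class. The ratio rule was checked on simulated counts. The 10 members and the list of 76 other pathway genes were chosen with earlier results of these data known, and the score limits for classes, the immune rule and 4 alternatives were chosen after the clusters were seen. All 10 members are named. Of the pathway list, the 20 genes with the highest share in any class are named in the plot of pathway levels. They were taken from genes found in at least 10% of the cells of a class or past 2-fold in the 3 DPI comparison. Genes past 2-fold are named in the text in part, not in full. No columns of the authors' own comparisons were used.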

Additional observations from a re-analysis of the deposited data

How the results depend on the processing

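Of 35 member ratios past 2-fold, 23 stayed past 2-fold in the same direction under every alternative run for them and 12 did not. Wif1 in endoneurial-like cells ranged from 59.9 to 132, Sfrp5 in Schwann-like cells from 0.0194 to 0.0392, Sostdc1 in Schwann-like cells from 0.273 to 0.394 and neonatal Dkk3 in endoneurial-like cells from 6.08 to 8.08. The Wnt5a ratio in endoneurial-like cells ranged from 0.415 to 0.524 and was not past 2-fold under 3 alternatives. With each cell classed from its own markers, the Sfrp5 ratio in epineurial-like cells at 3 DPI turned to 0.164 and the Sfrp1 ratio in Schwann-like cells to 1.01, the Sostdc1 ratio in Schwann-like cells was 0.273 and the neonatal Sfrp5 ratio in perineurial-like cells 0.0434; the share of cells was 58.1% for Wif1, 74.7% for Sfrp5 and 65% for Sostdc1, and the members past 2-fold were 5 rather than 3 in endoneurial-like and 3 rather than 6 in endothelial-like cells. With at least 500 genes per cell, these shares were 81.8%, 100% and 77.8%, the neonatal Sfrp5 ratio in perineurial-like cells was 0.0477 and that of Sfrp4 turned to 1.18. With Wnt genes used for clustering the same ratios were 0.047 and 1.32, and without the cell with the most UMIs of the gene the Sfrp4 ratio was 1.44. The Sfrp4 ratio also turned in endothelial-like cells to 0.812 when doublets were kept and in neonatal endoneurial-like cells to 1.5 with at most 5% mitochondrial UMIs, where the Sostdc1 share was 69.4%. The Sfrp2 ratio in epineurial-like cells was 0.736 at resolution 0.8 and 0.387 after division by the median ratio of all genes. The cause of these changes was not tested.

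Thinning removes UMIs and also leaves out shallower cells. At 500 and 1000 UMIs per cell the Wif1 share was 28.6% and 49.8% and the Sostdc1 share 52.5% and 69.2%, and the Sfrp5 share at 1000 UMIs was 100%. At 500 UMIs the members in at least 2% of cells were 3 in endoneurial-like cells at 3 DPI, 2 and 3 in Schwann-like cells at 3 DPI and in uninjured nerve and 3 in neonatal endoneurial-like cells; at 1000 UMIs they were 2 in Schwann-like cells at 3 DPI and 3 in neonatal endoneurial-like cells. At 5% of cells they were 3 in Schwann-like cells of either adult library and 3 in neonatal endoneurial-like cells. With a 3-fold limit the members past it were 1 in Schwann-like and 2 in endothelial-like cells, and the pathway genes 8 in endoneurial-like and 3 in epineurial-like cells. With at least 30 UMIs, members were 2 in Schwann-like and 3 in endothelial-like cells, and pathway genes 2 in epineurial-like and 6 in Schwann-like cells. Leaving out either neonatal library gave Sostdc1 shares in Schwann-like cells of 53.6% to 70.8%, and, in neonatal epineurial-like cells, 5 members past 2-fold without replicate 1 (3 without replicate 2), as when doublets were kept. No paired analysis was possible because the groups share fewer than 2 replicate numbers and no result comes from a test. Each adult condition is 1 library, so spread between animals, batch and condition cannot be told apart.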
